A study of Homo sapiens with 9 samples.

Results

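Genes of the proteasome were followed in A549 cells treated with an inhibitor of PRMT5 or of the type I arginine methyltransferases. They were taken by symbol, as genes named PSM with a letter from A to G and a number. The rule found 48 gene identifiers under 47 symbols (PSMA2 has 2) among the 57751 identifiers of the expression tables. Of these, 45 had enough reads to be tested, among 18292 genes tested in all. The other 3 were PSMA8, a testis form of an alpha subunit with 1 read in all 9 libraries, PSMB11, a thymus form of a catalytic subunit with 6 reads, and the second PSMA2 identifier with 24 reads.

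The proteasome is the main protease of the cytosol and nucleus, and it degrades proteins that carry ubiquitin chains. Its barrel-shaped core particle (20S) has outer rings of alpha subunits (PSMA genes) and inner rings of beta subunits (PSMB genes), of which PSMB5, PSMB6 and PSMB7 cut proteins. A regulatory particle (19S) caps the core: its ATPases (PSMC) unfold substrates, and its other subunits (PSMD) bind and remove ubiquitin. Interferon induces PSMB8 and PSMB10, which replace PSMB5 and PSMB7 in the immunoproteasome, while loss of proteasome activity raises many subunit genes together through the transcription factor NFE2L1.

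A549 cells are epithelial and derive from an adenocarcinoma of the human lung. Cells received the solvent DMSO, GSK591, which inhibits PRMT5, the main enzyme for symmetric dimethylarginine, or MS023, which inhibits the type I enzymes that place asymmetric dimethylarginine. Both compounds were given at 1 µM for 7 days, and each of the 3 groups had 3 libraries made with random hexamers from RNA freed of ribosomal RNA. Plates for DMSO started with 0.2 and plates for either inhibitor with 0.4 times 1e5 cells, so that seeding and treatment cannot be told apart against DMSO but do not differ between the inhibitors. Whether the libraries of a group stem from different cultures is not stated in the labels, and p-values here cover no spread beyond that among the libraries, which may be technical.

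Libraries held between 31398075 and 51244525 reads counted in genes. The 5 epithelial markers, keratins among them, summed to 6421 CPM (counts scaled to the size of the library) on average in DMSO, 7647 CPM with GSK591 and 5145 CPM with MS023, with no overlap between groups. EPCAM, 1 of them, went the other way, at 13.5 CPM in DMSO, 6.43 CPM with GSK591 and 21.0 CPM with MS023. Leukocyte markers summed to at most 9.47 CPM and markers of fibroblasts and endothelium to at most 31.2 CPM. The sum for fibroblasts and endothelium was highest with MS023, at 29.5 CPM on average against 16.7 CPM in DMSO and 11.2 CPM with GSK591. Most of it was COL1A1, at 25.1, 11.7 and 7.18 CPM, while LUM was highest with GSK591, at 1.81 CPM. The part of these markers in the results was not tested. Mitochondrial ribosomal RNA reached 932.5 CPM in GSK591 3 and at most 20.7 CPM in any other library, and DMSO 1 lay apart from the other DMSO libraries on the third principal component. Without DMSO 1 and GSK591 3, 1 proteasome gene was higher and 30 lower with GSK591, and 7 were higher and 11 lower with MS023. Over all genes, 5251 were then higher and 5313 lower with GSK591, and 4779 higher and 4435 lower with MS023.

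With GSK591, most proteasome genes fell, each by a modest amount. Against DMSO, 32 of the 45 tested genes were lower and 1 was higher, by edgeR's quasi-likelihood test with an adjusted p under 0.05. Among all genes tested, 62.6% were called, 32.4% as lower and 30.1% as higher. In an F-test among the 3 groups, 38 of the 45 genes passed, against 78.1% of all. The median change of the proteasome genes was -0.19 on the log2 scale against 0.01 over all genes. No proteasome gene changed by 2-fold, whereas 2157 of all genes tested did so with an adjusted p under 0.05. Among called genes the median size of the change was 0.28 for the proteasome and 0.46 for all genes. In 33 of the 45 genes the GSK591 and DMSO libraries did not overlap, against 65.6% of all genes tested. With libraries scaled by their total counts, 2 proteasome genes were higher and 27 lower, against 34.4% and 27.5% of all genes, and PSMB2, PSMD1, PSMD8, PSMD10 and PSMG1 no longer passed (adjusted p from 0.058 to 0.212). In the deposited FPKM values, which are fragments scaled to gene length and depth, 1 was higher and 35 lower of 46 tested, against 20.5% and 38.6% of all genes.

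With MS023, 7 proteasome genes were higher and 13 lower than in DMSO, and 25 did not pass the test. Of all genes tested, 51% were called, 25.1% as higher and 25.9% as lower. Their median change was -0.03, close to the 0.00 of all genes. The groups did not overlap in 27 of 45 genes, against 57.5% of all genes. The split between rises and falls depended on scaling: with total counts, 10 genes were higher and 8 lower, against 28.4% and 22.1% of all genes. In FPKM 3 were higher and 8 lower, against 20.9% and 21.7%. Leaving out DMSO 2 gave 11 higher and 8 lower, and leaving out MS023 2 or MS023 3 also left 8 lower. Over all genes, 4342 were higher and 4061 lower without DMSO 2. Without MS023 2 and without MS023 3, 4073 and 4091 of all genes were lower.

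Between the inhibitors, 25 proteasome genes were higher with MS023 than with GSK591 and 2 were lower, PSMG4 and PSMD10. Of all genes tested, 65.4% were called, 33.6% as higher and 31.7% as lower. With total counts 23 were higher and 3 lower, against 31.9% and 32.9% of all genes, and in FPKM 27 and 1, against 39% and 22.6%. The median difference was 0.16 for the proteasome and 0.00 over all genes. Libraries of the 2 treatments did not overlap in 32 of 45 genes, against 70.5% of all genes. Since the comparisons share libraries, their values are given side by side and are not independent of each other. In bulk RNA, fewer cells that express a gene and less RNA per cell cannot be told apart.

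**Figure D1:**
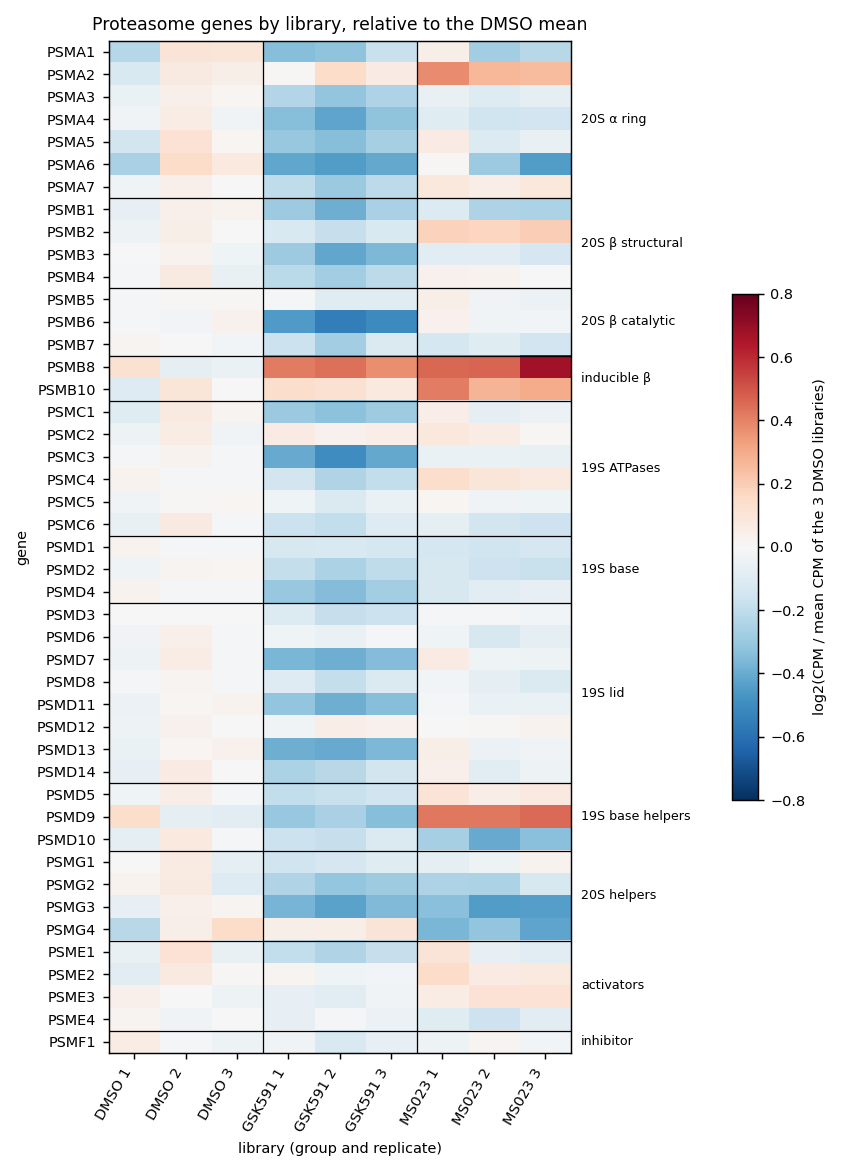
Level of each tested proteasome gene (rows, grouped by role) in each of the 9 libraries (columns), as log2 of its CPM over the gene's mean CPM in DMSO. Most rows of the core and regulatory particle are below the DMSO mean in the GSK591 libraries, while PSMB8 is above it in all 6 libraries of treated cells.

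Summed levels of both particles were lower with GSK591. Summed over its 14 constitutive genes, expression was 1641 ± 47.0 CPM in DMSO, 1358 ± 43.0 CPM with GSK591 and 1596 ± 36.1 CPM with MS023 (mean ± SD, n = 3). The GSK591 sum was 82.8% of that in DMSO and the MS023 sum 97.3%. The 17 regulatory particle genes summed to 2985 ± 48.3 CPM in DMSO, 2608 ± 41.1 CPM with GSK591 and 2908 ± 52.4 CPM with MS023, or 87.4% and 97.4% of DMSO. These sums are not scaled to gene length. By median FPKM, the core genes were at 76.9% of DMSO with GSK591 and 91.2% with MS023. The regulatory particle genes were at 75.9% and 91.6%. In FPKM the median of all genes also changed with GSK591, by -0.10 on the log2 scale. For both particles every GSK591 library lay below every DMSO library, and the MS023 and DMSO libraries overlapped. With GSK591, 12 of the 14 core genes were lower, with a median change of -0.27. So were 13 of the 17 regulatory particle genes, with a median of -0.19. Of all genes tested, 32.4% were lower, and their median change was 0.01.

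Levels within a particle differed between genes, although each complex holds its subunits in fixed numbers. In FPKM, the core genes in DMSO ran from 35.9 for PSMB2 to 219.5 for PSMB3 with a median of 138.8. The regulatory particle genes ran from 46.1 for PSMD6 to 175.6 for PSMC4 with a median of 87.1. The genes for assembly chaperones of the core, which leave the finished particle, were lower, from 11.3 for PSMG4 to 43.0 for PSMG1.

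**Figure D2:**
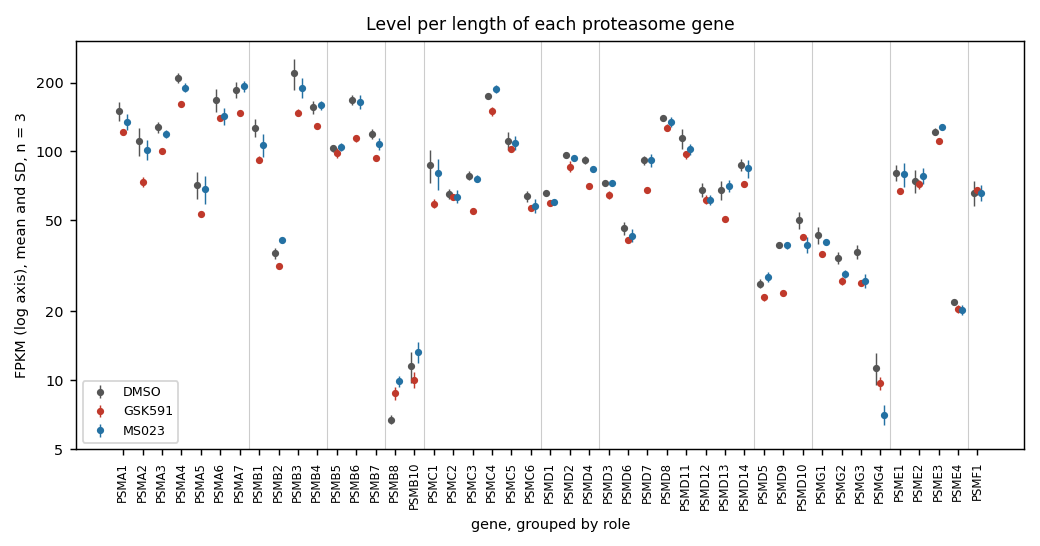
FPKM of each tested proteasome gene on a log axis, grouped by role, with points at the mean and bars of 1 SD for the 3 libraries of each group. In DMSO, constitutive core genes lie between 35.9 and 219.5 FPKM and core assembly chaperones between 11.3 and 43.0 FPKM.

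In the alpha ring, whose subunits form the gate of the core, 6 of 7 tested genes were lower with GSK591 and none was higher. Of all genes tested, 32.4% were lower and 30.1% higher. PSMA6 was at 13.4, 17.8 and 16.9 CPM in the DMSO libraries, at 11.99, 11.74 and 12.06 CPM with GSK591, and at 16.1, 13.1 and 11.7 CPM with MS023. Each GSK591 value was below each DMSO value, while the MS023 values reached into both other groups. PSMA6 changed by -0.43 ± 0.11 with GSK591 (log2 ± SE, adjusted p = 0.00344) and by -0.24 ± 0.11 with MS023 (adjusted p = 0.0858). In FPKM without a filter the GSK591 call was lost (limma, adjusted p = 0.0797). Without DMSO 1 the MS023 difference became -0.33 (adjusted p = 0.0111), and without MS023 1 it became -0.38 (adjusted p = 0.00518). PSMA4 and PSMA5 changed with GSK591 by -0.36 ± 0.04 and -0.30 ± 0.06 (adjusted p = 2.14e-06 and 0.000384). PSMA3 and PSMA7 changed by -0.27 and -0.24. The fall of PSMA1, -0.28 ± 0.09 (adjusted p = 0.0138), rested on single libraries, since the adjusted p rose to 0.0766 without DMSO 2, to 0.0601 without DMSO 3, to 0.0677 without GSK591 1 and to 0.0523 without GSK591 2.

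PSMA2 (hg19 chr7:42956459-42971822) gave opposite answers in counts and in FPKM. In counts it was at 5.53, 6.33 and 6.22 CPM in DMSO, at 6.06, 6.68 and 6.32 CPM with GSK591, and at 7.83, 7.23 and 7.19 CPM with MS023. The MS023 libraries were above all others, a change of 0.29 ± 0.08 against DMSO (adjusted p = 0.00638), and GSK591 differed from DMSO by 0.07 ± 0.08 (adjusted p = 0.464). In FPKM it was at 95.6, 127 and 111.5 in DMSO, at 78.1, 71.0 and 72.2 with GSK591, and at 113.4, 97.5 and 95.2 with MS023. There the GSK591 libraries were below all others, a change of -0.58 (limma, adjusted p = 0.000848), and MS023 differed by -0.12 (adjusted p = 0.365). PSMA2 had 0.0541 CPM for each FPKM, where most proteasome genes had at least 0.568. PSMA6, PSMD9 and PSMA1 were also low in this ratio, at 0.0952, 0.273 and 0.316. Each of these 4 genes overlaps another annotated gene, as do 29 of the 48 identifiers. This ratio is not scaled to gene length. With CPM taken per kilobase of exon, PSMG4 was low as well, at 0.0876 for each FPKM against 0.0958 for PSMA1. PSMG4 overlaps SLC22A23 and TUBB2B. The part of the overlap in the values was not tested. Among the 18 tested genes without an overlap, 17 were lower and none higher with GSK591. Of all genes tested, 32.4% were lower and 30.1% higher. Called changes with GSK591 that differed by over 1.5 times between the scales were larger in FPKM for PSMD9 (-0.68), PSMB3 (-0.56), PSMC1 (-0.54), PSMB7 (-0.35) and PSMG1 (-0.26), and smaller for PSMA6 (-0.25) and PSMD11 (-0.23). These values are not corrected for the median of all genes, which was -0.10 in FPKM and 0.01 in counts.

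**Figure D3:**
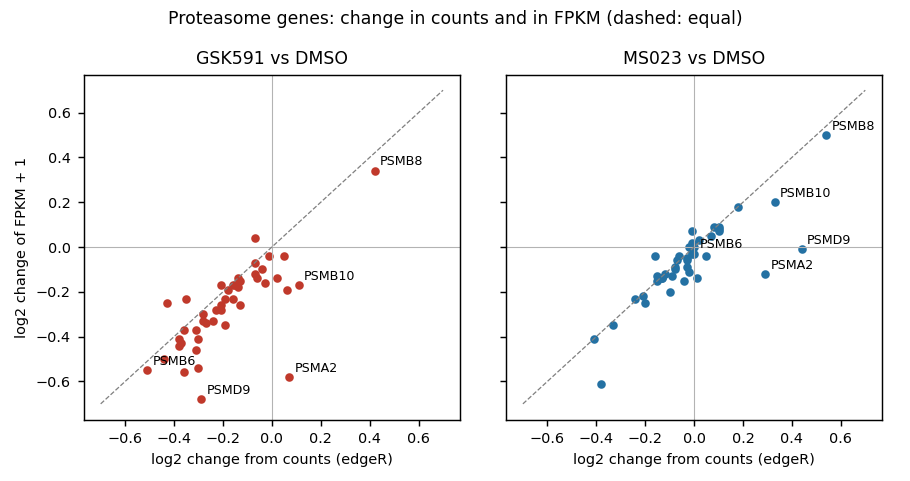
Change of each tested proteasome gene in FPKM (y axis, limma on log2(FPKM + 1)) against its change in counts (x axis, edgeR), both in log2 against DMSO, with 1 panel for each inhibitor. The 2 scales had the same sign for 39 of 45 genes with GSK591 and 36 of 45 with MS023, and PSMA2 and PSMD9 lie far from the diagonal.

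All 4 structural genes of the beta ring fell with GSK591: PSMB3 by 0.36, PSMB1 by 0.31, PSMB4 by 0.23 and PSMB2 by 0.14 on the log2 scale. The share called lower among all genes tested was 32.4%. PSMB1, PSMB2, PSMB3 and PSMB4 are the genes meant here. PSMB2 was the one among them that moved in opposite directions with the 2 inhibitors, by -0.14 ± 0.03 with GSK591 (adjusted p = 0.00231) and by 0.18 ± 0.03 with MS023 (adjusted p = 0.000454). With total-count scaling the GSK591 change of PSMB2 was -0.08 (adjusted p = 0.058). PSMB1 also fell with MS023, by 0.20 on the log2 scale (adjusted p = 0.00226), a call lost in FPKM without a filter (limma, adjusted p = 0.126).

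The 3 constitutive catalytic genes did not move alike. PSMB6 (hg19 chr17:4699438-4701790), which cuts after acidic residues, was at 131.6, 130.4 and 136.0 CPM in DMSO, at 96.7, 90.5 and 93.1 CPM with GSK591, and at 135.9, 130.3 and 130.5 CPM with MS023. All GSK591 libraries lay far below the other 6, which overlapped. The change with GSK591, -0.51 ± 0.04 (adjusted p = 1.75e-08) or a fall by 29.6%, was the largest fall in counts among the 45 tested genes with a PSM symbol. PSMB6 differed from DMSO by 0.00 ± 0.04 with MS023 (adjusted p = 0.929), and it was 0.50 ± 0.04 higher with MS023 than with GSK591 (adjusted p = 1.36e-08).

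PSMB5, the chymotrypsin-like subunit and the main target of bortezomib, was at 120.1, 122.6 and 122.3 CPM in DMSO, at 121.0, 113.8 and 113.9 CPM with GSK591, and at 125.9, 119.4 and 117.7 CPM with MS023. The 3 groups overlapped, and the differences from DMSO were -0.07 ± 0.04 (adjusted p = 0.142) and -0.01 ± 0.04 (adjusted p = 0.879). PSMB7, the trypsin-like subunit, was at 126.0, 124.4 and 122.5 CPM in DMSO, at 110.3, 102.7 and 114.8 CPM with GSK591, and at 112.6, 116.1 and 111.8 CPM with MS023. All treated libraries were below all DMSO libraries, with changes of -0.19 ± 0.04 (adjusted p = 0.00092) and -0.13 ± 0.04 (adjusted p = 0.0131). The MS023 call on PSMB7 was lost without DMSO 1, DMSO 2 or MS023 3 (adjusted p = 0.0652, 0.055 and 0.0627).

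The inducible catalytic genes were expressed at a low level. PSMB8 rose with both inhibitors and PSMB10 with MS023. PSMB8 (hg19 chr6:32808493-32812480) was at 9.004, 7.83 and 7.95 CPM in DMSO, at 11.0, 11.2 and 10.7 CPM with GSK591, and at 11.3, 11.4 and 13.2 CPM with MS023. All 6 treated libraries were above all DMSO libraries. The change was 0.42 ± 0.08 with GSK591 (adjusted p = 0.000272), where it was the one proteasome gene called higher, and 0.54 ± 0.08 with MS023 (adjusted p = 3.52e-05). The difference between the inhibitors was 0.13 ± 0.07 (adjusted p = 0.153), with the MS023 libraries just above those of GSK591. In FPKM this difference was 0.16 (limma, adjusted p = 0.0455), where the median of all genes was 0.09. PSMB8 overlaps 2 annotated genes, TAPSAR1 among them, and with no strand setting given the reads of overlapping genes cannot be told apart.

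PSMB10 (hg19 chr16:67968404-67970990) was at 9.13, 10.5 and 9.83 CPM in DMSO, at 10.8, 10.7 and 10.4 CPM with GSK591, and at 13.1, 11.9 and 12.1 CPM with MS023. MS023 libraries were above all others, and the GSK591 and DMSO libraries overlapped. PSMB10 rose by 0.33 ± 0.07 with MS023 (adjusted p = 0.000914) and differed by 0.11 ± 0.07 with GSK591 (adjusted p = 0.186). In FPKM the MS023 difference was 0.20 and did not pass (limma, adjusted p = 0.164), and the GSK591 difference had the other sign, -0.17 (adjusted p = 0.195).

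As a share of the inducible and the constitutive form together, in FPKM, PSMB8 made up 6.70%, 5.85% and 5.87% in DMSO, 7.88%, 8.604% and 8.06% with GSK591, and 8.28%, 8.31% and 9.45% with MS023. The treated libraries were above DMSO throughout, by 2.04 percentage points with GSK591 and 2.54 with MS023 (exact two-sided permutation test, p = 0.1 for each, the smallest that 3 against 3 libraries can give). The share of PSMB10 against PSMB7 was 8.76% ± 0.857 in DMSO, 9.71% ± 0.822 with GSK591 and 10.9% ± 0.475 with MS023 (SD, n = 3). These shares differed from DMSO by 0.95 points with GSK591 (exact permutation p = 0.2; in CPM 1.56 points, p = 0.1, with no overlap) and 2.18 points with MS023 (exact permutation p = 0.1). The constitutive forms thus made up most of each pair in every library.

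**Figure D4:**
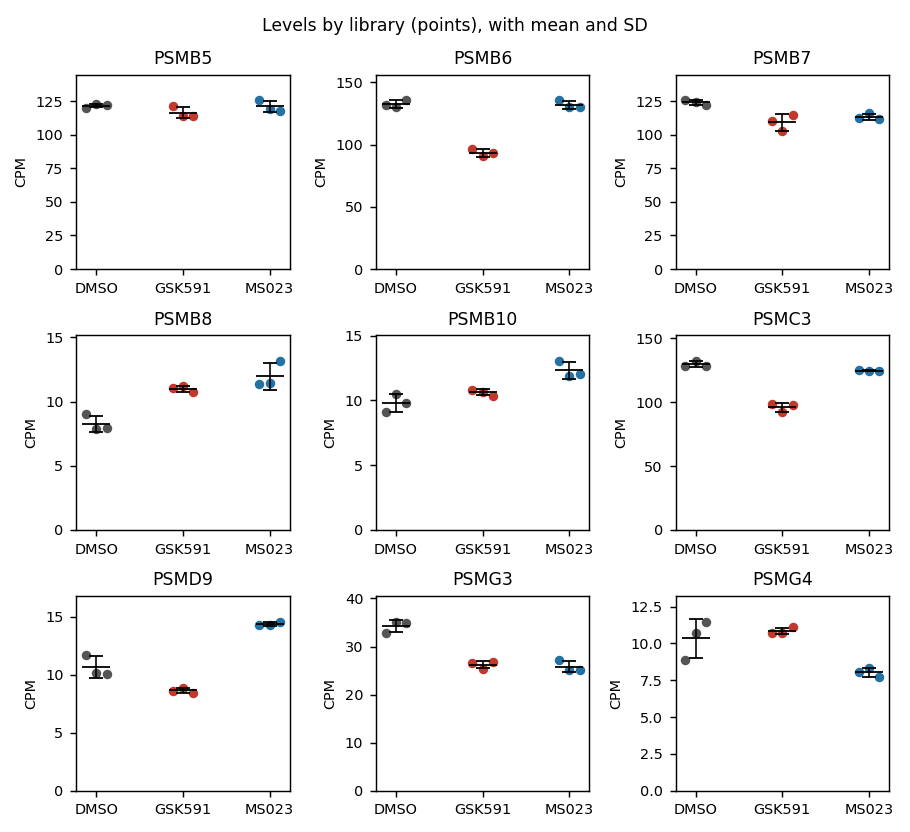
CPM of selected proteasome genes in each library, 3 points per group with the mean and bars of 1 SD, y axes from 0. PSMB6 and PSMC3 are low in the GSK591 libraries alone, and PSMB8 is higher in the libraries of both inhibitors than in DMSO.

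Among the 6 ATPases of the regulatory particle, 4 fell with GSK591, against 32.4% of all genes tested. PSMC3 was at 128.4, 132.5 and 128.2 CPM in DMSO, at 98.3, 92.1 and 97.5 CPM with GSK591, and at 125.2, 124.8 and 124.4 CPM with MS023. The GSK591 libraries were the lowest, and the MS023 libraries lay just below those of DMSO. PSMC3 fell by 0.44 ± 0.03 with GSK591 on the log2 scale (adjusted p = 5.27e-08) and differed by -0.06 ± 0.03 with MS023 (adjusted p = 0.196). PSMC1, PSMC4 and PSMC6 changed with GSK591 by -0.30, -0.19 and -0.16. PSMC2 and PSMC5, neighbours of these subunits in the same ring, differed by 0.05 (adjusted p = 0.242) and -0.07 (adjusted p = 0.113), and PSMC2 passed without DMSO 2 (0.10, adjusted p = 0.0383) and with total-count scaling (0.11, adjusted p = 0.0194).

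The base scaffold genes PSMD1 and PSMD2 and the ubiquitin receptor gene PSMD4 were lower with both inhibitors. Their changes were -0.13, -0.21 and -0.31 with GSK591, and -0.15, -0.16 and -0.09 with MS023. For comparison, 32.4% of all genes tested were lower with GSK591 and 25.9% with MS023. The MS023 call on PSMD4 (adjusted p = 0.032) was lost without any 1 of 7 libraries, with adjusted p from 0.0626 to 0.185; it held without DMSO 3 or GSK591 2. PSMD2 with MS023 was -0.04 in FPKM (limma, adjusted p = 0.508).

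In the lid, which holds the deubiquitinase PSMD14, 6 of 8 genes were lower with GSK591 and no gene passed with MS023. Of all genes tested, 32.4% were lower with GSK591 and 51% were called with MS023. PSMD13 was at 108.9, 114.1 and 115.4 CPM in DMSO, at 86.1, 85.3 and 87.7 CPM with GSK591, and at 116.5, 109.2 and 110.6 CPM with MS023. GSK591 libraries were well below the other 6, which overlapped, a fall by 0.38 ± 0.04 on the log2 scale (adjusted p = 2.58e-07). PSMD7 and PSMD11 changed by -0.37 and -0.35 (for PSMD11, adjusted p = 0.0632 by limma in FPKM without a filter), and PSMD14 by -0.21 ± 0.05 (adjusted p = 0.0011). PSMD6 and PSMD12 differed by -0.03 (adjusted p = 0.44) and 0.02 (adjusted p = 0.626).

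**Figure D5:**
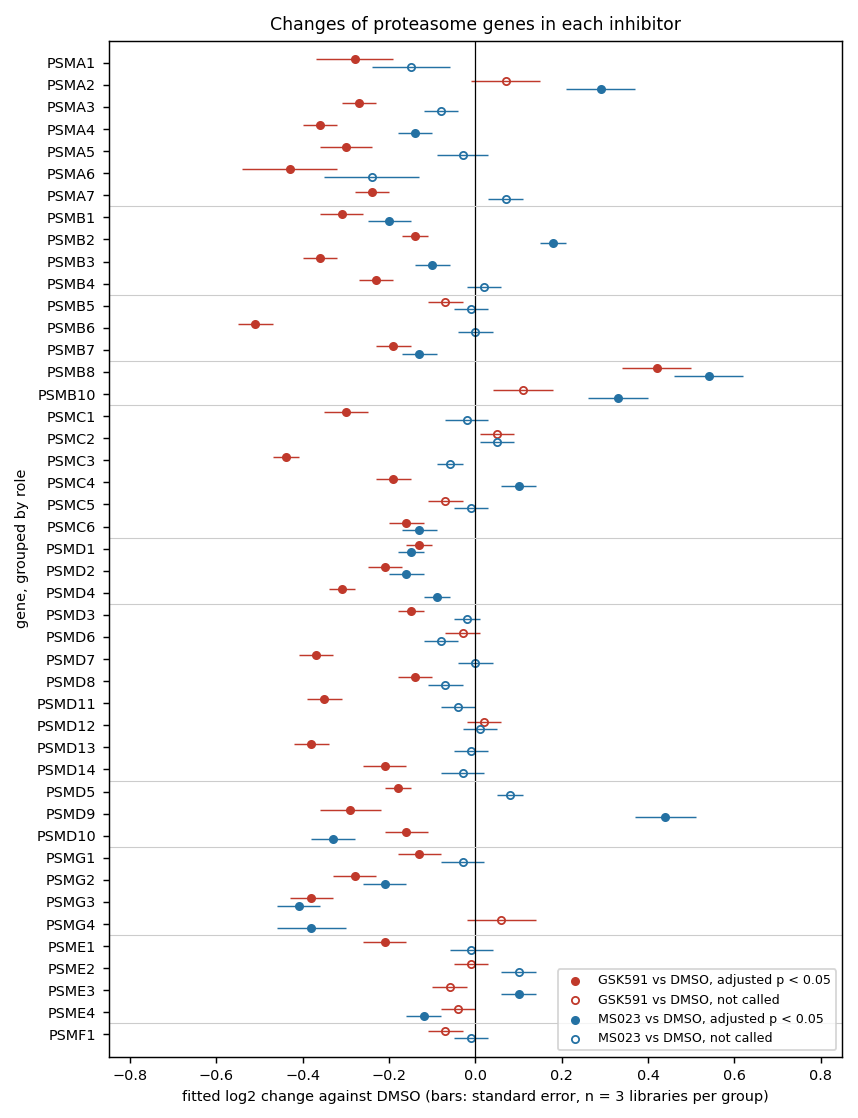
Log2 change of each tested proteasome gene against DMSO with GSK591 and with MS023, grouped by role, with bars of 1 SE. With GSK591 39 of 45 changes are below 0, and with MS023 most values lie near 0 while the changes furthest from 0 are those of PSMB8, PSMD9, PSMB10 and PSMA2 above it and PSMG3, PSMG4 and PSMD10 below it.

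Chaperones that assemble the base of the regulatory particle were lower with GSK591 in all 3 cases and went different ways with MS023. Lower calls with GSK591 made up 32.4% of all genes tested. PSMD9 (hg19 chr12:122326636-122356203) was at 11.7, 10.1 and 10.1 CPM in DMSO, at 8.64, 8.89 and 8.40 CPM with GSK591, and at 14.2, 14.3 and 14.6 CPM with MS023, so that no 2 groups overlapped. It fell by 0.29 ± 0.07 with GSK591 on the log2 scale (adjusted p = 0.00186) and rose by 0.44 ± 0.07 with MS023 (adjusted p = 6.01e-05). Its difference between the inhibitors, 0.73 ± 0.07 (adjusted p = 1.86e-07), was the largest of any proteasome gene tested. In FPKM PSMD9 was at 38.0, 40.6 and 38.5 in DMSO, at 24.2, 24.2 and 23.6 with GSK591, and at 39.8, 39.6 and 37.1 with MS023. There the fall with GSK591 was -0.68 (limma, adjusted p = 1.63e-06), MS023 differed from DMSO by -0.01 (adjusted p = 0.912), and the difference between inhibitors was 0.67.

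PSMD10, also known as gankyrin, was at 74.6, 83.1 and 78.2 CPM in DMSO, at 69.9, 69.3 and 72.6 CPM with GSK591, and at 65.5, 59.5 and 62.3 CPM with MS023. The groups were ordered DMSO, GSK591, MS023 with no overlap. The changes were -0.16 ± 0.05 with GSK591 (adjusted p = 0.00818) and -0.33 ± 0.05 with MS023 (adjusted p = 2.9e-05). The GSK591 call was lost without DMSO 2 (-0.10, adjusted p = 0.074), and the difference between inhibitors, -0.18 ± 0.05 (adjusted p = 0.00356), did not pass in FPKM (-0.11, limma, adjusted p = 0.191).

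Of the 4 chaperones that assemble the core, 3 were lower with each inhibitor, but not the same 3. Among all genes tested, 32.4% were lower with GSK591 and 25.9% with MS023. PSMG3 was at 32.8, 35.2 and 34.8 CPM in DMSO, at 26.5, 25.4 and 26.9 CPM with GSK591, and at 27.2, 25.1 and 25.2 CPM with MS023. Libraries of both inhibitors overlapped each other and lay below DMSO, with changes of -0.38 ± 0.05 (adjusted p = 5.8e-06) and -0.41 ± 0.05 (adjusted p = 5.79e-06). PSMG4, its partner in a heterodimer, was at 8.88, 10.7 and 11.5 CPM in DMSO, at 10.7, 10.7 and 11.1 CPM with GSK591, and at 8.04, 8.33 and 7.73 CPM with MS023. PSMG4 was thus low in the MS023 libraries alone, with a change of -0.38 ± 0.08 (adjusted p = 0.00162), and with GSK591 it differed by 0.06 ± 0.08 (adjusted p = 0.553). In FPKM its change with MS023 was -0.61 and its difference with GSK591 -0.19 (limma, adjusted p = 0.00173 and 0.149). Between the inhibitors PSMG4 differed by -0.43 ± 0.08 (adjusted p = 0.000325).

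The other heterodimer is PSMG1 with PSMG2. PSMG2 was at 35.8, 36.9 and 32.8 CPM in DMSO, at 29.8, 28.4 and 28.9 CPM with GSK591, and at 29.6, 29.5 and 32.1 CPM with MS023. Every treated library was below every DMSO library, with changes of -0.28 ± 0.05 (adjusted p = 0.000299) and -0.21 ± 0.05 (adjusted p = 0.00353). PSMG1 changed by -0.13 ± 0.05 with GSK591 (adjusted p = 0.0239). That call was lost without DMSO 1, DMSO 2, GSK591 1, GSK591 2 or GSK591 3, with adjusted p from 0.0531 to 0.175.

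Alternative caps of the core changed little. PSME1, an interferon-inducible cap subunit, fell with GSK591 by 0.21 ± 0.05 on the log2 scale (adjusted p = 0.00423; by limma in FPKM without a filter, 0.0699), while PSME2, its partner, differed by -0.01 (adjusted p = 0.818). With MS023 the nuclear cap gene PSME3 differed by 0.10 ± 0.04 (adjusted p = 0.0385) and PSME4, a cap linked to acetylated histones, by -0.12 ± 0.04 (adjusted p = 0.0146). The call on PSME3 was lost without DMSO 3, GSK591 2, MS023 2 or MS023 3 (adjusted p from 0.0526 to 0.161), and that on PSME4 without DMSO 1 or MS023 2 (adjusted p = 0.0656 and 0.088). PSMF1, an inhibitor of the core, differed by -0.07 with GSK591 (adjusted p = 0.134) and -0.01 with MS023 (adjusted p = 0.789).

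Promoters were read because many members moved together. RefSeq (GRCh38.p14) gave promoters for 41 of the 47 symbols, and the 250 bases before each start were searched on both strands. PSMA7, PSMB1, PSMB6, PSMB7, PSMD4 and PSMG3 had no entry, and each of them was lower with GSK591. The core of the antioxidant response element bound by NFE2L1 (TGACNNNGC, or GCNNNGTCA on the other strand) was in 10 of 41 proteasome promoters, or 24.4%, and in 11.0% of 27305 promoters of the same length. The interferon response core (GAAA and, after any 2 bases, GAAA again, or TTTC likewise on the other strand) was in 5 of 41, or 12.2%, against 3.07% of all. The CCAAT box (CCAAT, or ATTGG), bound by NF-Y, was in 17 of 41, or 41.5%, against 33.0%. No match to one motif overlapped a match to another. The windows below show this interferon core in PSMB10, PSME2 and PSMG4, whose responses differed, and the antioxidant core in 3 genes lower with GSK591, with each match in capitals.
PSMB10, chr16:67936851-67936887, minus strand: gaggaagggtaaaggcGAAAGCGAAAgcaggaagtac
PSME2, chr14:24146613-24146654, minus strand: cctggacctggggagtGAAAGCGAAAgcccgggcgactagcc
PSMG4, chr6:3258898-3258939, plus strand: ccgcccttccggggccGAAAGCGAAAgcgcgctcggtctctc
PSMD9, chr12:121888672-121888712, plus strand: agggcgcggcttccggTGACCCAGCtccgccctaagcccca
PSMD3, chr17:39980754-39980794, plus strand: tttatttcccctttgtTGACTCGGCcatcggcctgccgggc
PSMB3, chr17:38752621-38752661, plus strand: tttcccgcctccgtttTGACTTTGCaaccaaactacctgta

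The same interferon core letters stood in PSMB10, which rose with MS023, in PSMG4, which fell, and in PSME2, which did not pass. The PSMB8 promoter held no match in this window. Genes with an antioxidant core had a median change with GSK591 of -0.17, with 7 of 10 lower, and those without it of -0.16, with 19 of 29 lower. Genes without a promoter entry, PSMB6 among them, are in neither group. A match describes letters in a window and shows neither a bound site nor a cause.

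Genes that work with the proteasome or supply it were read from 4 lists. Beside their counts stand the shares of all genes tested, of which 30.1% were higher and 32.4% lower with GSK591 (62.6% called) and 25.1% higher and 25.9% lower with MS023 (51% called). Of 13 proteasome partners, 3 were higher and 8 lower with GSK591, and 2 higher and 5 lower with MS023. Called were thus 84.6% and 53.8%. The medians were -0.18 and -0.04, against 0.01 and 0.00 over all genes tested. POMP, the maturation factor of the core, changed by -0.55 ± 0.10 with GSK591 (adjusted p = 0.000302) and by -0.31 ± 0.10 with MS023 (adjusted p = 0.0201). The second call was lost without DMSO 2, DMSO 3, MS023 2 or MS023 3 (adjusted p from 0.0597 to 0.133). SHFM1, a small lid subunit, fell with GSK591 by 0.53 ± 0.09 on the log2 scale (adjusted p = 0.000107), while the ubiquitin receptor ADRM1 differed by 0.06 (adjusted p = 0.24). AKIRIN2, which brings proteasomes into the nucleus, changed by 0.41 with GSK591 and -0.26 with MS023. The 2 partners higher with MS023 were ZFAND5 (0.53, adjusted p = 1.09e-08) and PITHD1 (0.19, adjusted p = 0.016). The call on PITHD1 was lost without DMSO 3, MS023 2 or MS023 3 (adjusted p from 0.0601 to 0.0886). USP14 changed by -0.36 with GSK591 (adjusted p = 1.15e-06). With MS023 USP14 changed by -0.10 (adjusted p = 0.0415), a call lost in FPKM (limma, adjusted p = 0.148).

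Of 11 genes in the NFE2L1 pathway, 3 were higher and 5 lower with GSK591, and 3 higher and 1 lower with MS023, with medians of -0.06 and 0.07. Called were 72.7% and 36.4%, against 62.6% and 51% of all genes. NFE2L1 itself averaged 278.1 CPM in DMSO, 199.7 CPM with GSK591 and 286.8 CPM with MS023. Its change was -0.48 ± 0.04 with GSK591 (adjusted p = 3e-08) and 0.04 with MS023 (adjusted p = 0.318), and it was 0.52 ± 0.04 higher with MS023 than with GSK591 (adjusted p = 7.98e-09). NGLY1, which removes sugars from NFE2L1, changed by -0.22 and 0.27. DDI2, the protease that activates it, changed by -0.32 with GSK591 in counts, but in FPKM the difference was -0.08 (limma, adjusted p = 0.25). The 3 genes higher with GSK591 were NFE2L3 (0.62, adjusted p = 6.83e-08), UFD1L (0.31, adjusted p = 9.24e-06) and DDI1 (1.29, adjusted p = 0.0152). DDI1 averaged at most 0.295 CPM in any group, and UFD1L differed by 0.13 in FPKM (limma, adjusted p = 0.18). NFE2L3 was also higher with MS023, by 0.42 (adjusted p = 7.72e-06).

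Of 11 ubiquitin genes and shuttle factors, none was higher and 6 were lower with GSK591, and 3 were higher and 1 lower with MS023, with medians of -0.11 and 0.02. The shares called, 54.5% and 36.4%, were below the 62.6% and 51% of all genes. The shuttles UBQLN1 and RAD23B, which carry substrates to the proteasome, changed with GSK591 by -0.38 each. Of 10 interferon regulators of the inducible subunits, 4 were higher and 3 lower with GSK591, and 4 higher and 4 lower with MS023, with medians of -0.01 for each. Here 70% and 80% were called, against the same 62.6% and 51%. IRF1 changed by 0.37 and 0.31, and NLRC5, an activator of antigen presentation genes, by 0.89 with GSK591.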

How the data were processed

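Read counts per gene and FPKM tables were analysed. Per the submitters' processing notes, cutadapt, STAR, featureCounts and DESeq2 were used with hg19. The authors deposited whole-number counts without normalisation, and FPKM values in the layout of Cufflinks gene tables. Versions, annotation and strand setting: not given in the sources used here. Groups came from the labels. The counts went through edgeR 4.0.16 in R 4.3.3, with filterByExpr (minimum count 10, minimum total 15), TMM scaling, and a quasi-likelihood fit of all 9 libraries by group alone. P-values were two-sided and adjusted by Benjamini-Hochberg over 18292 genes, with a threshold of 0.05. Standard errors are the size of the log2 change over the square root of F. CPM are scaled by TMM.

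FPKM were tested with limma 3.58.1 on log2(FPKM + 1) for genes with FPKM of 1 or more in 3 libraries, so that low genes' changes are understated. In FPKM the median of all genes moved by -0.10 with GSK591. Other alternatives were RLE or total-count scaling, other filters, the replicate number as a block, leaving out 1 library at a time or DMSO 1 with GSK591 3, fitting just the 6 libraries of a comparison, a threshold of 0.01, and DESeq2 1.42.0.

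The members and lists were chosen with earlier results of these data known. Given in every library were the constitutive and inducible catalytic genes and, per comparison, up to 4 called members with the largest rise and 4 with the largest fall at a mean of at least 1 CPM. Other members were chosen to show their role. One gene with a symbol of this form and some list genes are not reported here. Pseudogene copies named after members, 30 in all, held 1416 counts against 2045751 in the members. Intervals cover no amplification bias beyond its spread between libraries.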

Additional observations from a re-analysis of the deposited data

How the results depend on the processing

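The fall with GSK591 held in every setting: 27 to 32 genes were lower in counts and 29 to 35 in FPKM. Over all genes, 4415 to 6286 were higher and 5027 to 6016 lower in counts. In FPKM 2779 to 3771 of all genes were higher and 4909 to 5256 lower, so that falls outnumbered rises there as well. Proteasome genes called higher with GSK591 were 1, and 2 with total counts, with a filter of 1 CPM or in unfiltered FPKM. With MS023 20 proteasome genes were called, against 9327 of all genes tested. At an adjusted p under 0.01, 12 were called, 7 of them lower, against 3484 of all genes higher and 3660 lower. In FPKM with either pseudocount 11 were called, 3 higher and 8 lower. With a pseudocount of 1, 2835 of all genes were higher and 2950 lower. Unfiltered FPKM gave 8, with 2 higher and 6 lower, against 2852 and 2629 of all genes. Total counts left 8 lower, against 4035 of all genes. Of 27 genes called between inhibitors, 2 were lower, 4 with the 1 CPM filter and 1 in FPKM with either pseudocount. Lower calls over all genes were 5804, 5194 with the 1 CPM filter and 3070 in FPKM with a pseudocount of 1.

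With 1 library left out, the calls with GSK591 were 31 to 33 (1 to 2 higher, 29 to 32 lower), with MS023 13 to 20 (5 to 11 higher, 8 to 13 lower) and between inhibitors 25 to 28 (23 to 26 higher, 2 to 2 lower). Over all genes the calls with GSK591 were then 5111 to 5690 higher and 5392 to 6016 lower. With MS023 they were 3921 to 4844 and 4061 to 4757, and between inhibitors 5717 to 6312 and 5468 to 6052. The test among 3 groups gave 35 to 37 proteasome genes against 38 with all 9 libraries, where 78.1% of all genes passed. MS023 had 8 lower without DMSO 2, MS023 2 or MS023 3, and 11 higher without DMSO 2; GSK591 had 2 higher without DMSO 2. The PSMB8 share differed by 1.83 to 2.32, 2.15 to 2.82 and 0.11 to 0.71 points for GSK591, MS023 and between inhibitors, and the PSMB10 share by 0.63 to 1.44, 1.85 to 2.67 and 0.77 to 1.55.

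Of results called in counts or in FPKM, these turned sign in FPKM, and the cause was not tested: PSMA2 with GSK591 (-0.58, or -0.59 with a pseudocount of 0.1) and with MS023 (-0.12), PSMD9 with MS023 (-0.01), TXNL1 with GSK591 (-0.08) and UBE3C with MS023 (0.17). Calls held under every alternative run for 23 of 33 genes with GSK591, 7 of 20 with MS023 and 18 of 27 between inhibitors.

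The replicate block gave 1 higher and 32 lower with GSK591, 5 higher and 11 lower with MS023, and 23 higher and 2 lower between inhibitors. Over all genes it gave 5362 higher and 5783 lower with GSK591, 4382 and 4473 with MS023, and 6026 and 5616 between inhibitors. With group means taken out, 9 same-numbered pairs correlated at -0.43 to 0.26 and 18 other pairs at -0.43 to 0.35. The labels state no pairing, and with 3 libraries per group these correlations cannot settle whether the numbers mark one.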
